A study of Mus musculus with 11 samples.

Results

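The collagen genes were followed across neuroblastomas that arose spontaneously in Th-MYCN+/+ mice. These mice are homozygous, and in them the promoter of the tyrosine hydroxylase gene drives a MYCN transgene and tumours of the sympathetic nervous system form. All 4 groups share this genotype, and tumours of about 5 mm were collected 16 h after 1 dose of the agent. One group received CBL0137 at 40 mg/kg intravenously (n = 3 mice), one panobinostat intraperitoneally at 5 mg/kg (n = 2 mice, numbered 1 and 3), one both drugs at these doses (the combination, n = 3) and one vehicle intraperitoneally (n = 3). CBL0137, a curaxin, intercalates into DNA and holds the histone chaperone FACT in chromatin, and panobinostat inhibits histone deacetylases. CBL0137 was intravenous and vehicle intraperitoneal, so drug and route cannot be told apart there. The same limit applies to panobinostat against CBL0137. It also applies to the combination against vehicle or panobinostat, if its CBL0137 was intravenous too. Panobinostat replicate 2 is not analysed here. The promoter is active in catecholamine-producing cells, and RNA came from frozen tumour tissue, stroma included.

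A gene was taken as a member when its symbol had the form of a collagen chain (Col, a type number, a, a chain number) and its level reached 1 TPM in at least 2 of the 11 libraries. TPM (transcripts per 1000000) is a level per transcript length scaled to the same total in each library, so levels of different genes can be set side by side. Of the 24411 genes listed, 44 had such a symbol, and 37 of them met the level. These were 10 of 11 fibrillar chains, 6 of 8 chains of basement membrane collagens (types IV, XV and XVIII) and 21 of 25 others. The 7 chains below it were Col2a1, Col4a3, Col4a4, Col6a4, Col17a1, Col19a1 and Col22a1. Of these, Col4a3 and Col4a4 passed 1 TPM in 1 library only, vehicle replicate 2, at 2.29 TPM and 1.63 TPM. Just inside the level, Col13a1 reached it in panobinostat replicate 1 at 1.75 TPM and in combination replicate 2 at 1.97 TPM. In vehicle tumours 23 of the 37 members reached 1 TPM in at least 2 libraries. The other 14 met the level through treated tumours, so their counts below are not independent of the rule.

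Collagens are triple helices of 3 chains, hydroxylated and folded in the endoplasmic reticulum, trimmed outside the cell and cross-linked into a matrix. Types I, III and V form the banded fibrils of connective tissue and are made mainly by fibroblasts. Type IV is the network of basement membranes under endothelium and around Schwann cells, with types XV and XVIII at its edge, and type VI forms beaded filaments between fibrils and basement membranes. In neuroblastoma, fibrous septa with vessels run between nests of tumour cells, and Schwannian stroma is a known histological feature.

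The 4 libraries with the highest sums of skeletal muscle, adrenal cortex, kidney and B cell markers were set apart. Panobinostat replicate 3 held skeletal muscle markers at a sum of 11659 TPM, while the other 10 held 7.75 to 902 TPM. Of those, combination replicate 1 held 902 TPM and CBL0137 replicate 2 held 704 TPM, and the rest at most 80.1 TPM. Combination replicate 2 held adrenal cortex markers at 5489 TPM, against 20.4 to 48.4 TPM elsewhere. Vehicle replicate 2 held kidney markers at 478 TPM, against 0.38 to 6.14 TPM elsewhere. CBL0137 replicate 3 held the highest sum of B cell markers, 176 TPM, against 2.71 to 74.9 TPM elsewhere. Counts of collagen genes are therefore also given without these 4 libraries. Combination replicate 1 and CBL0137 replicate 2 were kept there, and fat markers were not used in this choice. Fat markers summed to 493 to 1539 TPM after CBL0137 and 1624 to 3369 TPM after panobinostat. Their sums were 2241 to 8873 TPM after the combination and 213 to 557 TPM in vehicle tumours. The tumour label held, in that the 15 sympathoadrenal markers, such as Th, were listed above 0 in every library and summed to between 869 and 2494 TPM.

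Collagen transcripts were a larger share of the RNA in treated tumours. The summed level of the 37 members was 1004 ± 550 TPM after CBL0137 (SD, n = 3), 3239 ± 169 TPM after panobinostat (SD, n = 2), 5358 ± 138 TPM after the combination (SD, n = 3) and 459 ± 124 TPM in vehicle tumours (SD, n = 3). These means were 2.19-fold, 7.06-fold and 11.7-fold that of vehicle. The sums of the panobinostat libraries (3120 and 3359 TPM) and of the combination libraries (5208 to 5480 TPM) did not overlap with those of vehicle (347 to 591 TPM) or of each other. CBL0137 replicates 1 and 2 lay at 749 and 628 TPM and replicate 3 at 1635 TPM, so the CBL0137 mean was raised by the library that also had the most B cell marker RNA. Since these are bulk samples, a larger share of cells that make collagen and more collagen RNA per cell cannot be told apart.

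The same 6 chains were the most abundant in each group. Col3a1, the single chain of type III collagen, was the most abundant in each group, with 294 ± 166 TPM after CBL0137 (SD, n = 3), 1038 ± 42.7 TPM after panobinostat (SD, n = 2), 1318 ± 452 TPM after the combination (SD, n = 3) and 123 ± 41.9 TPM in vehicle tumours (SD, n = 3). Col4a1, Col1a2, Col1a1, Col4a2 and Col5a2 filled the next 5 places in each group, with Col4a1 before Col1a2 in CBL0137, combination and vehicle tumours and after it in panobinostat tumours. Lower places differed, with Col9a1 in place 22 after CBL0137, 21 after panobinostat, 35 after the combination and 22 in vehicle tumours. Within the leading chains the levels of Col4a1 and Col1a2 overlapped between libraries in the CBL0137, combination and vehicle groups. The ratios between chains of 1 collagen type differed in how they varied. The ratio of Col1a2 to Col1a1, the chains of type I, was 1.54 ± 0.165 after CBL0137, 1.46 ± 0.169 after panobinostat, 1.55 ± 0.143 after the combination and 1.38 ± 0.0448 in vehicle tumours (SD). The ratio of Col4a1 to Col4a2, the chains of the common type IV helix, was 2.35 ± 0.162 after CBL0137, 2.24 ± 0.185 after panobinostat, 2.04 ± 0.0806 after the combination and 2.22 ± 0.150 in vehicle tumours (SD), within 1.98 to 2.48 in each of the 11 libraries. The ratio of Col5a2 to Col5a1, chains of type V, was 3.02 ± 0.567 after CBL0137, 2.79 ± 0.166 after panobinostat, 2.40 ± 0.317 after the combination and 1.98 ± 0.378 in vehicle tumours (SD). The ratio of Col6a3 to Col6a2, chains of type VI, was 1.40 ± 0.240 after CBL0137, 0.982 ± 0.0679 after panobinostat, 1.502 ± 0.392 after the combination and 1.06 ± 0.162 in vehicle tumours (SD). The Col6a3 ratio of every combination library (1.05 to 1.76) was above both panobinostat libraries (0.934 and 1.03), and no ratio was tested. Col4a1 and Col4a2 lie head to head on chromosome 8, and their annotated spans overlap by 85 bases (mm10, chr8:11198423-11312889 and chr8:11312805-11449287). The counting by strand is not stated, so the division of reads between their first bases is uncertain.

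**Figure D1:**
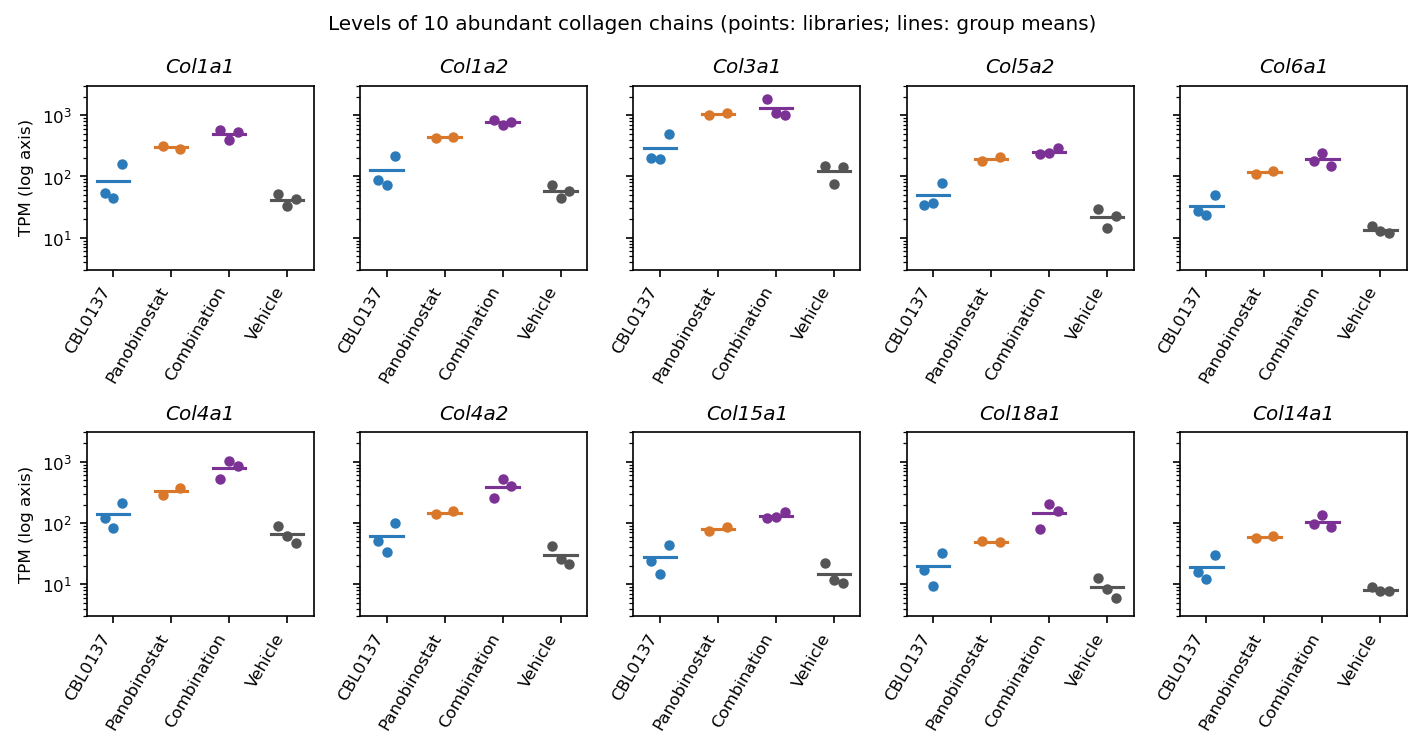
TPM (log axis) of 10 abundant collagen chains, with 1 point per library and a line at each group mean, for CBL0137, panobinostat, combination and vehicle tumours. In each panel the panobinostat and combination points lie above all vehicle points, and CBL0137 replicate 3 is the highest of its group.

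The region just before the start site is shown for 3 chains that rose after panobinostat and the combination and held a motif searched, and for Col9a1, whose combination levels ran apart from theirs. RefSeq (GRCm38.p6) held promoters for 31 of the 37 members, and the 120 bases before the start are printed 5′ to 3′ on the gene's strand. Capitals mark a match to 1 of 4 short motifs searched on both strands, CCAAT (the CCAAT box), GGGCGG (the GC box), TATAAA (the TATA box) and TGANTCA (the AP-1 element).
Col1a2, chr6:4505498-4505617, plus strand: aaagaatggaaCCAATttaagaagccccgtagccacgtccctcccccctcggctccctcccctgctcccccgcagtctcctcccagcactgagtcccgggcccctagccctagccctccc
Col3a1, chr1:45311418-45311537, plus strand: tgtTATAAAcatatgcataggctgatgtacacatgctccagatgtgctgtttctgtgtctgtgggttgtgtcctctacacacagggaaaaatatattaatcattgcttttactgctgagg
Col6a1, chr10:76726045-76726164, minus strand: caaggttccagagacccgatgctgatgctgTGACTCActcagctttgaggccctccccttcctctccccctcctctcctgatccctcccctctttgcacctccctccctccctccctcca
Col9a1, chr1:24177490-24177609, plus strand: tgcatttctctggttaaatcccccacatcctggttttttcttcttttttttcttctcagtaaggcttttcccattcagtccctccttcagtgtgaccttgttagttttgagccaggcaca
Col1a2 held a CCAAT box, Col3a1 a TATA box and Col6a1 an AP-1 element, and the printed Col9a1 window held none of the 4. The other 3 chains were chosen for holding a motif, so this contrast was set by the choice. Col9a1 has 2 promoters in RefSeq, of which 1 is printed, and the last bases of its window lie within the annotated span of the gene. Over the 34 member windows (some genes have more than 1 start) 5 held CCAAT, 18 GGGCGG, 2 TATAAA and 1 TGANTCA. Of 32851 mouse windows of this length 21.3% held CCAAT, 26.5% GGGCGG, 6.34% TATAAA and 3.41% TGANTCA. The 3 printed chains other than Col9a1 share none of these motifs in these windows, and a match is a description of letters only.

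Panobinostat against vehicle asked what the deacetylase inhibitor alone did. Changes are differences of log2(TPM + 1), tested with limma over 15497 genes, and a gene is called when its Benjamini-Hochberg adjusted p is under 0.05. Collagen genes of all 3 classes rose. Of the 37 members 30 were called higher and 0 lower, while 25.5% of all tested genes were called higher and 16.9% lower (42.4% in either direction). Among the 23 members already at 1 TPM in vehicle, 21 were called higher. The median change over the 37 was 1.95, against 0.10 over all tested genes. In 34 of the 37 members both panobinostat libraries lay above all vehicle libraries, as they did in 37.1% of all tested genes. The split over all genes depended on the scaling, with 3959 higher and 2613 lower as deposited, 3651 and 3669 with TMM factors, and 2451 and 3960 with quantile normalization.

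The fibrillar members had a median change of 2.70, against 2.34 for the basement membrane members and 1.23 for the others, many of them low. By summed TPM the fibrillar class was 7.94-fold, the basement membrane class 5.13-fold and the other class 7.06-fold its level in vehicle tumours. Col1a1 stood at 319.9 and 281 TPM after panobinostat, against 50.8, 32.6 and 42.1 TPM in vehicle tumours. Col1a2 stood at 429.8 and 445 TPM after panobinostat, against 72.4, 43.7 and 57.5 TPM in vehicle tumours. Col3a1 stood at 1008 and 1068 TPM after panobinostat, against 150.4, 74.4 and 143 TPM in vehicle tumours. For these major fibril chains both panobinostat libraries lay far above the 3 vehicle libraries and close to each other. The log2 change was 2.84 ± 0.441 for Col1a1 (SE, limma adjusted p = 0.0012), 2.93 ± 0.379 for Col1a2 (SE, limma adjusted p = 0.00065) and 3.14 ± 0.433 for Col3a1 (SE, limma adjusted p = 0.0008). Col5a2, a chain of type V that sets fibril diameter, stood at 179.6 and 209.6 TPM after panobinostat, against 29.0, 14.4 and 22.8 TPM in vehicle tumours. Col5a1 stood at 67.2 and 72.1 TPM after panobinostat, against 16.8, 7.97 and 9.43 TPM in vehicle tumours. Col5a3 stood at 40.5 and 37.2 TPM after panobinostat, against 6.52, 2.30 and 3.37 TPM in vehicle tumours. The type V chains were thus non-overlapping too, with log2 changes of 3.13 for Col5a2, 2.57 for Col5a1 and 3.06 for Col5a3. Of the 10 fibrillar members 9 were called. Col11a1 (1.55), Col27a1 (1.67) and Col24a1 (0.78) were the others, and Col11a2, at 2.83 and 1.92 TPM after panobinostat against 0.73 to 1.14 TPM in vehicle tumours, had a change of 0.80 with a limma adjusted p of 0.052.

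Basement membrane chains rose as well, 5 of 6. Col4a1 stood at 290.5 and 372 TPM after panobinostat, against 88.5, 61.0 and 46.6 TPM in vehicle tumours. Col4a2 stood at 138 and 157 TPM after panobinostat, against 41.9, 25.5 and 21.7 TPM in vehicle tumours. Neither gene overlapped between the groups, with log2 changes of 2.36 ± 0.411 (SE, limma adjusted p = 0.0019) and 2.32 ± 0.432 (SE, limma adjusted p = 0.0026). Col15a1 stood at 75.2 and 85.3 TPM after panobinostat, against 22.0, 11.9 and 10.4 TPM in vehicle tumours. Col18a1, the precursor of the fragment endostatin, stood at 50.4 and 48.1 TPM after panobinostat, against 12.8, 8.44 and 5.87 TPM in vehicle tumours. Col4a5 stood at 7.88 and 6.72 TPM after panobinostat, against 1.01, 1.31 and 1.12 TPM in vehicle tumours. These 3 genes were separated from vehicle, with log2 changes of 2.43 for Col15a1, 2.38 for Col18a1 and 1.95 for Col4a5. Col4a6, the X-linked neighbour of Col4a5, was listed at 1.27 and 0.02 TPM after panobinostat, against 0.12, 0.02 and 0 TPM in vehicle tumours, and was not called.

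Of the 21 remaining members 16 were called. Col6a1 stood at 112 and 121 TPM after panobinostat, against 15.5, 12.7 and 12.0 TPM in vehicle tumours, a log2 change of 3.03 ± 0.292 (SE, limma adjusted p = 0.00044). Col6a2 stood at 73.5 and 74.3 TPM after panobinostat, against 12.2, 7.26 and 8.99 TPM in vehicle tumours. Col6a3 stood at 68.6 and 76.5 TPM after panobinostat, against 13.8, 8.46 and 7.81 TPM in vehicle tumours. The 3 chains of type VI filaments thus changed alike in size, by 3.03, 2.86 and 2.78. Col14a1, a type XIV chain that sits on fibril surfaces, stood at 56.4 and 61.4 TPM after panobinostat, against 9.15, 7.61 and 7.69 TPM in vehicle tumours. Col12a1, its type XII relative, stood at 32.9 and 42.7 TPM after panobinostat, against 8.75, 3.82 and 4.43 TPM in vehicle tumours. Col16a1 stood at 21.6 and 19.9 TPM after panobinostat, against 2.58, 1.44 and 2.33 TPM in vehicle tumours. These fibril-associated chains had log2 changes of 2.71, 2.60 and 2.82. Col8a1, a short-chain collagen of vessel walls, stood at 83.5 and 132 TPM after panobinostat, against 19.7, 10.4 and 14.8 TPM in vehicle tumours (log2 change 2.77). Col28a1, a chain that in mouse is found mainly in peripheral nerve, stood at 13.1 and 10.4 TPM after panobinostat, against 1.88, 1.14 and 2.00 TPM in vehicle tumours (log2 change 2.26). The low members Col6a6, Col7a1, Col8a2, Col9a1, Col9a2, Col20a1, Col23a1 and Col26a1 were called with changes of 0.72 to 1.31. Not called were Col6a5 (1.00), Col9a3 (0.18), Col10a1 (0.94), Col13a1 (0.38) and Col25a1 (0.71).

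Quantile normalization, which forces the libraries to 1 distribution and moves the median of all genes to -0.18, called 19 of the 37 higher and put the low chains Col23a1 and Col24a1 at -0.015 and -0.016. Leaving out each library in turn kept 23 of the 30 calls in every refit. Without the 4 libraries that stood apart 25 members were called, with panobinostat then 1 library assumed to vary like the other groups.

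**Figure D2:**
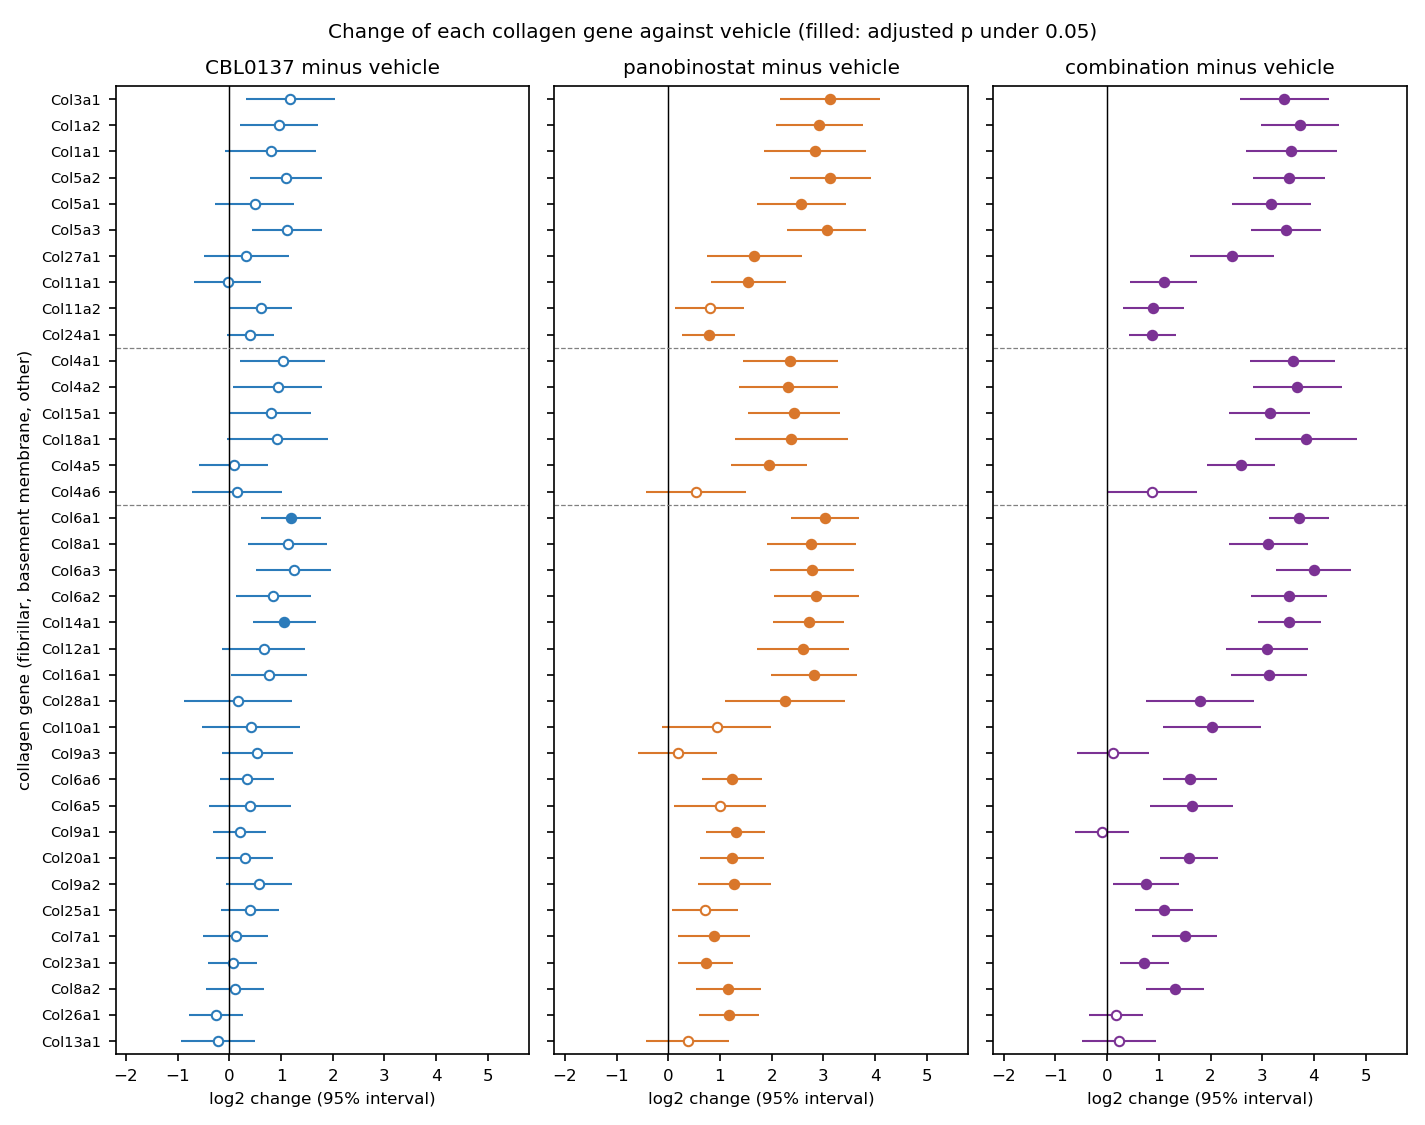
Log2 change with its 95% interval for the 37 collagen genes (rows, by class and by mean level), in CBL0137, panobinostat and combination tumours against vehicle, with filled points at an adjusted p under 0.05. Filled points number 2, 30 and 32, and the abundant chains at the top of each class lie furthest to the right.

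CBL0137 against vehicle asked the same of the curaxin. Of the 37 members 2 (5.4%) were called higher, Col6a1 and Col14a1, and 0 lower, while 4.99% of all tested genes were called higher and 1.13% lower (6.12% in either direction). The share called higher was thus close to that of all genes. In 13 of the 37 members every CBL0137 library lay above every vehicle library, as in 18.6% of all tested genes. In 0 members every one lay below, as in 19.1%. The median change of the members was 0.54, against -0.01 over all tested genes. Col6a1 stood at 27.3, 23.6 and 49.6 TPM after CBL0137, against 15.5, 12.7 and 12.0 TPM in vehicle tumours, a log2 change of 1.20 ± 0.261 (SE, limma adjusted p = 0.027). Col14a1 stood at 16.1, 12.2 and 29.7 TPM after CBL0137, against 9.15, 7.61 and 7.69 TPM in vehicle tumours, a log2 change of 1.06 ± 0.273 (SE, limma adjusted p = 0.049). For both genes all CBL0137 libraries lay above all vehicle libraries, with replicate 3 the highest. Col3a1 stood at 201, 195 and 486 TPM after CBL0137, and its change of 1.18 ± 0.387 did not pass (SE, limma adjusted p = 0.098). Col6a3, at 23.6, 15.3 and 39.8 TPM after CBL0137, had a change of 1.24 ± 0.326 (SE, limma adjusted p = 0.053). Col1a1, at 54.0, 44.6 and 159 TPM after CBL0137, overlapped with vehicle, and its change was 0.80 with a 95% interval of -0.07 to 1.68. Col4a1, at 122, 83.4 and 215 TPM after CBL0137, overlapped as well, and its change was 1.03 with a 95% interval of 0.21 to 1.85.

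Leaving out each library in turn kept the call of Col6a1 in 8 of 11 refits and that of Col14a1 in 2. No member was called without vehicle replicate 2 or 3 or without the 4 libraries that stood apart, and 1 was called when vehicle replicate 1 was left out, or replicate 1 or 3 of any treated group.

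The combination against vehicle gave the largest changes. Of the 37 members 32 were called higher and 0 lower, while 35.9% of all tested genes were called higher and 30.1% lower (66% in either direction). Among the 23 members at 1 TPM in vehicle, 21 were called higher. The median change was 2.41, against 0.08 over all tested genes. The split over all genes was 5568 higher and 4666 lower as deposited, 4996 and 5725 with TMM factors, and 4162 and 6678 with quantile normalization, which moved the median of all genes to -0.26 and called 24 members higher and 2 lower. All 10 fibrillar members, 5 of 6 basement membrane members and 17 of 21 others were called.

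Among fibrillar chains, Col1a1 stood at 573, 401 and 532 TPM after the combination, a log2 change of 3.56 ± 0.394 against vehicle (SE, limma adjusted p = 3.7e-05). Col1a2 stood at 840.4, 688 and 780.0 TPM after the combination, a change of 3.73 ± 0.339 (SE, limma adjusted p = 1.4e-05). Col3a1 stood at 1838, 1100 and 1016 TPM after the combination, a change of 3.43 ± 0.387 (SE, limma adjusted p = 4.2e-05). Every combination library exceeded every vehicle library for these chains, and Col3a1 was set apart by its high level in replicate 1. Col5a2 stood at 232, 245 and 286 TPM after the combination (change 3.52), Col5a1 at 111, 90.2 and 119 TPM (3.17) and Col5a3 at 60.3, 44.3 and 51.6 TPM (3.47). The less abundant fibrillar chains had log2(TPM + 1) changes of 2.41 for Col27a1, 1.09 for Col11a1, 0.89 for Col11a2 and 0.88 for Col24a1. This scale understates changes of low genes, and the mean TPM of Col27a1 was 13.6-fold that in vehicle tumours.

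Among basement membrane chains, Col4a1 stood at 514, 1043 and 850.4 TPM after the combination, a log2 change of 3.59 ± 0.368 (SE, limma adjusted p = 2.5e-05). Col4a2 stood at 260.2, 517 and 399 TPM after the combination, a change of 3.68 ± 0.386 (SE, limma adjusted p = 2.8e-05). Col18a1 stood at 80.6, 203 and 158 TPM after the combination, a change of 3.84 ± 0.441 (SE, limma adjusted p = 4.5e-05). In these 3 genes, replicate 2 was the highest and replicate 1 the lowest of the group, and all lay above vehicle. Col15a1 stood at 119, 127 and 150.4 TPM after the combination (3.14) and Col4a5 at 10.8, 18.7 and 8.28 TPM (2.59). Col4a6, at 0.06, 1.82 and 1.34 TPM after the combination, was not called (change 0.87, limma adjusted p = 0.072).

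Among the others, Col6a3 had the largest change of all members, 3.998 ± 0.326 (SE, limma adjusted p = 1e-05), with 130, 223 and 170.5 TPM after the combination. Col6a1 stood at 179, 246 and 148 TPM after the combination (3.72) and Col6a2 at 123, 131 and 96.9 TPM (3.51). Col14a1 stood at 97.1, 133 and 86.0 TPM after the combination (3.52), Col12a1 at 43.1, 60.7 and 56.7 TPM (3.09) and Col16a1 at 18.9, 24.1 and 38.4 TPM (3.13). Col8a1 stood at 103, 124 and 187 TPM after the combination (3.12) and Col28a1 at 9.23, 3.95 and 14.3 TPM (1.80). All of these were called. Col10a1, the chain of hypertrophic cartilage, stood at 7.04, 13.2 and 9.29 TPM after the combination, against 1.82, 1.63 and 1.37 TPM in vehicle tumours, and was called with a change of 2.02. The low members Col6a5, Col6a6, Col7a1, Col8a2, Col9a2, Col20a1, Col23a1 and Col25a1 were called with changes of 0.72 to 1.64. Not called were Col9a1 (-0.10), Col9a3 (0.11), Col13a1 (0.24) and Col26a1 (0.18). Leaving out each library in turn kept 31 of the 32 calls in every refit, all but that of Col9a2, and 28 members were called without the 4 libraries that stood apart.

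**Figure D3:**
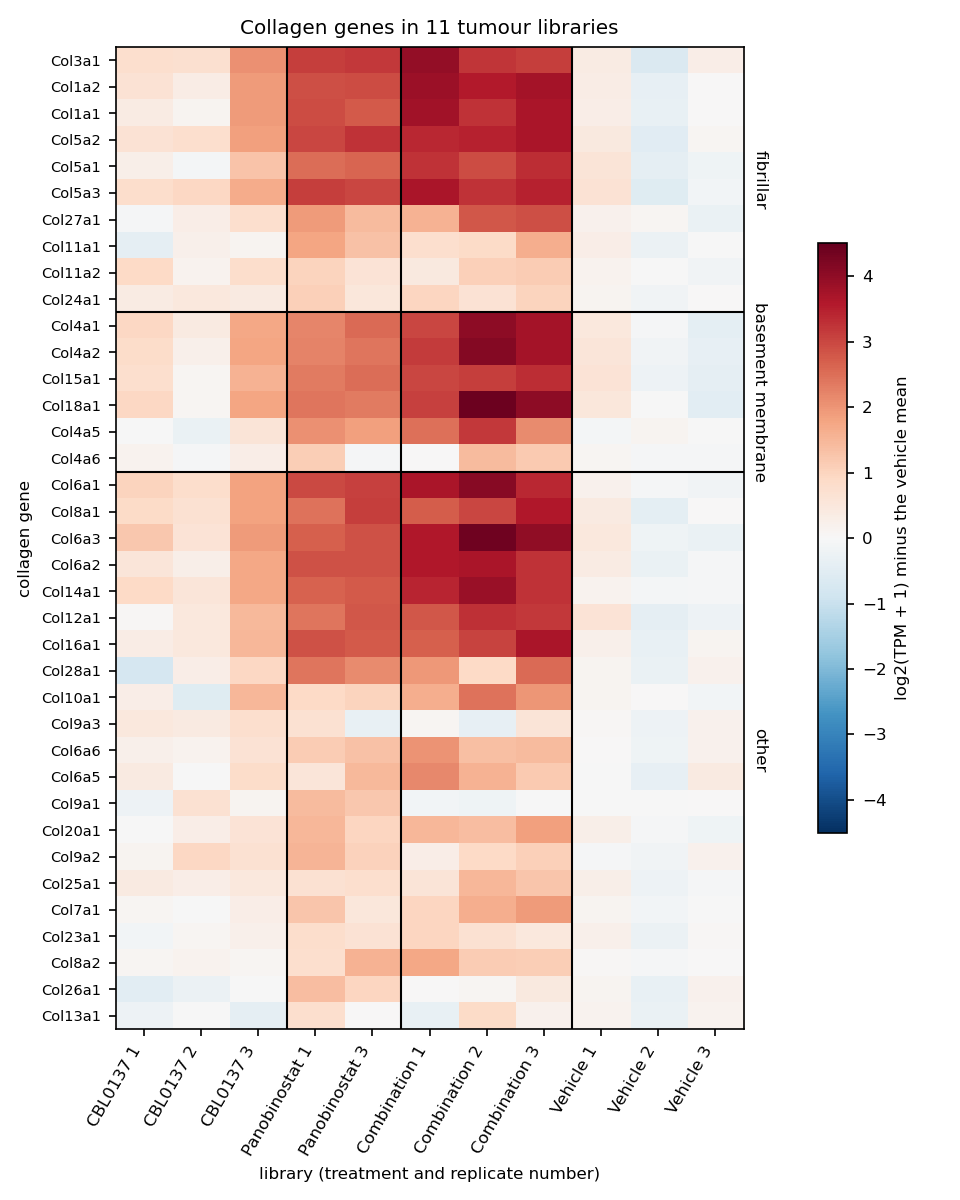
Log2(TPM + 1) minus the vehicle mean for 37 collagen genes (rows) in 11 libraries (columns, CBL0137, panobinostat, combination and vehicle), with red for higher and blue for lower levels. The abundant chains of each class are deep red in all panobinostat and combination columns, CBL0137 replicate 3 is the reddest of its group, and the rows of Col9a1 and Col26a1 are red in the panobinostat columns but pale in the combination columns.

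Treated groups were also set against each other. These comparisons share libraries with those above, so the values stand side by side and are not independent support. Against CBL0137, the combination had 29 of 37 members higher and 0 lower, while 33.2% of all tested genes were called higher and 23.7% lower (56.9% in either direction), and the median change was 1.99 against 0.12 over all genes. The change was 2.75 for Col1a1, 2.25 for Col3a1, 2.56 for Col4a1, 2.91 for Col18a1 and 2.75 for Col6a3, each called. Without the 4 libraries that stood apart, 27 members were called. Over all genes 5146 were called higher and 3678 lower as deposited, 4389 and 5017 with TMM factors, and 3892 and 5361 with quantile normalization.

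Panobinostat against CBL0137 had 25 of 37 members higher and 0 lower, while 12.1% of all tested genes were called higher and 6.81% lower (18.9% in either direction). The change was 2.03 for Col1a1, 1.95 for Col3a1 and 1.33 for Col4a1, each called, and 1.45 for Col18a1, which was not (limma adjusted p = 0.065). This count depends on single libraries, with 0 called higher without panobinostat replicate 3, 13 without panobinostat replicate 1, 9 without CBL0137 replicate 1 and 12 without CBL0137 replicate 2, where 0, 926, 329 and 448 of all genes were called higher. A fit of these 2 groups alone called 0 members and 0 of all genes. Over all genes 1879 were called higher and 1056 lower as deposited, 1618 and 1827 with TMM factors, and 1174 and 1339 with quantile normalization.

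The combination against panobinostat asked what CBL0137, together with its route of dosing, added to the deacetylase inhibitor. No member was called higher and 2 were called lower, Col9a1 and Col26a1, while 6.24% of all tested genes were called higher and 4.3% lower (10.5% in either direction). The median change was 0.39, against -0.02 over all genes. Over all genes 967 were called higher and 667 lower as deposited, 1502 and 1825 with quantile normalization, and 703 and 1273 after rescaling without small structural RNA and histone genes. In 17 members, 0 of them called, every combination library lay above both panobinostat libraries, as in 25.1% of all tested genes, and in 2 every one lay below, as in 21.5%. Among the members with higher means in the combination, Col18a1 had the largest difference, at 1.46 with a 95% interval of 0.36 to 2.56 (limma adjusted p = 0.077), followed by Col4a2 at 1.36 with 0.39 to 2.32 (limma adjusted p = 0.067), Col4a1 at 1.23 with 0.31 to 2.14 (limma adjusted p = 0.076) and Col6a3 at 1.22 with 0.41 to 2.03 (limma adjusted p = 0.057). The fibril chains differed less, with 0.72 for Col1a1, 0.81 for Col1a2 and 0.29 for Col3a1, whose 95% interval ran from -0.67 to 1.26. The class sums differed likewise. The basement membrane sum was 1487 ± 468 TPM after the combination (SD, n = 3) and 616 ± 74.9 TPM after panobinostat (SD, n = 2), while the fibrillar sum was 3020 ± 570 TPM after the combination (SD, n = 3) and 2094 ± 44.2 TPM after panobinostat (SD, n = 2). The basement membrane sum as a ratio to the fibrillar sum ran from 0.269 to 0.738 after the combination and from 0.273 to 0.315 after panobinostat, so the groups overlapped, with combination replicate 1 at the low end.

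Col9a1, a chain of the type IX collagen that decorates cartilage fibrils (chr1:24177589-24252738 in mm10), stood at 1.04, 0.94 and 1.18 TPM after the combination, against 4.83 and 4.06 TPM after panobinostat. In CBL0137 tumours it stood at 0.87, 2.54 and 1.42 TPM, and in vehicle tumours at 1.19, 1.17 and 1.23 TPM. The panobinostat libraries were above all 9 others. The change of the combination against panobinostat was -1.41 ± 0.258 (SE, limma adjusted p = 0.014), and that of panobinostat against vehicle 1.31 ± 0.258 (SE, limma adjusted p = 0.0034). Col26a1 (chr5:136741759-136883376), a collagen described in mouse testis and ovary, stood at 0.50, 0.59 and 1.02 TPM after the combination, against 2.88 and 1.95 TPM after panobinostat. In CBL0137 tumours it stood at 0.07, 0.26 and 0.47 TPM, and in vehicle tumours at 0.63, 0.20 and 0.71 TPM. Here too the panobinostat libraries were above all others, but Col26a1 reached the 1 TPM of the member rule through them and combination replicate 3, so its excess there is not independent of the rule. The change of the combination against panobinostat was -1.002 ± 0.262 (SE, limma adjusted p = 0.042), and that of panobinostat against vehicle 1.18 ± 0.262 (SE, limma adjusted p = 0.0058). Among the chains that form a helix with Col9a1, Col9a2 stood at 0.74, 1.60 and 1.95 TPM after the combination, against 3.07 and 1.86 TPM after panobinostat, and the groups overlapped (change -0.52, 95% interval -1.23 to 0.18). Col9a3 stood at 2.76, 1.74 and 4.28 TPM after the combination, against 4.71 and 1.77 TPM after panobinostat, and overlapped as well.

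The interaction is by how much the combination's change exceeded the 2 single-drug changes added together. It was called for 0 of 37 members and for 0% of all tested genes. It was -1.60 ± 0.346 for Col9a1 (SE, limma adjusted p = 0.35), -1.10 ± 0.426 for Col9a2 (SE, limma adjusted p = 0.43) and -0.75 ± 0.351 for Col26a1 (SE, limma adjusted p = 0.49). Leaving out each library in turn kept the call of Col9a1 against panobinostat in 9 of 11 refits and that of Col26a1 in 2. Without panobinostat replicate 1 or replicate 3, where neither was called and panobinostat was 1 library assumed to vary like the others, 366 and 386 of all genes were called in either direction, against 1634. Without CBL0137 replicate 3, 11 members were called (9 higher, Col1a1, Col1a2, Col4a1, Col4a2, Col18a1, Col6a1, Col6a3, Col10a1 and Col14a1, and 2 lower). Over all genes 1691 were called higher and 926 lower in that refit, against 967 and 667 with all libraries. CBL0137 replicate 3 is in neither group compared, so leaving it out changed the estimated spread and not the difference of the means. Without the 4 libraries that stood apart, again with panobinostat as 1 library, 1 member was called, Col1a2, and it was higher.

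**Figure D4:**
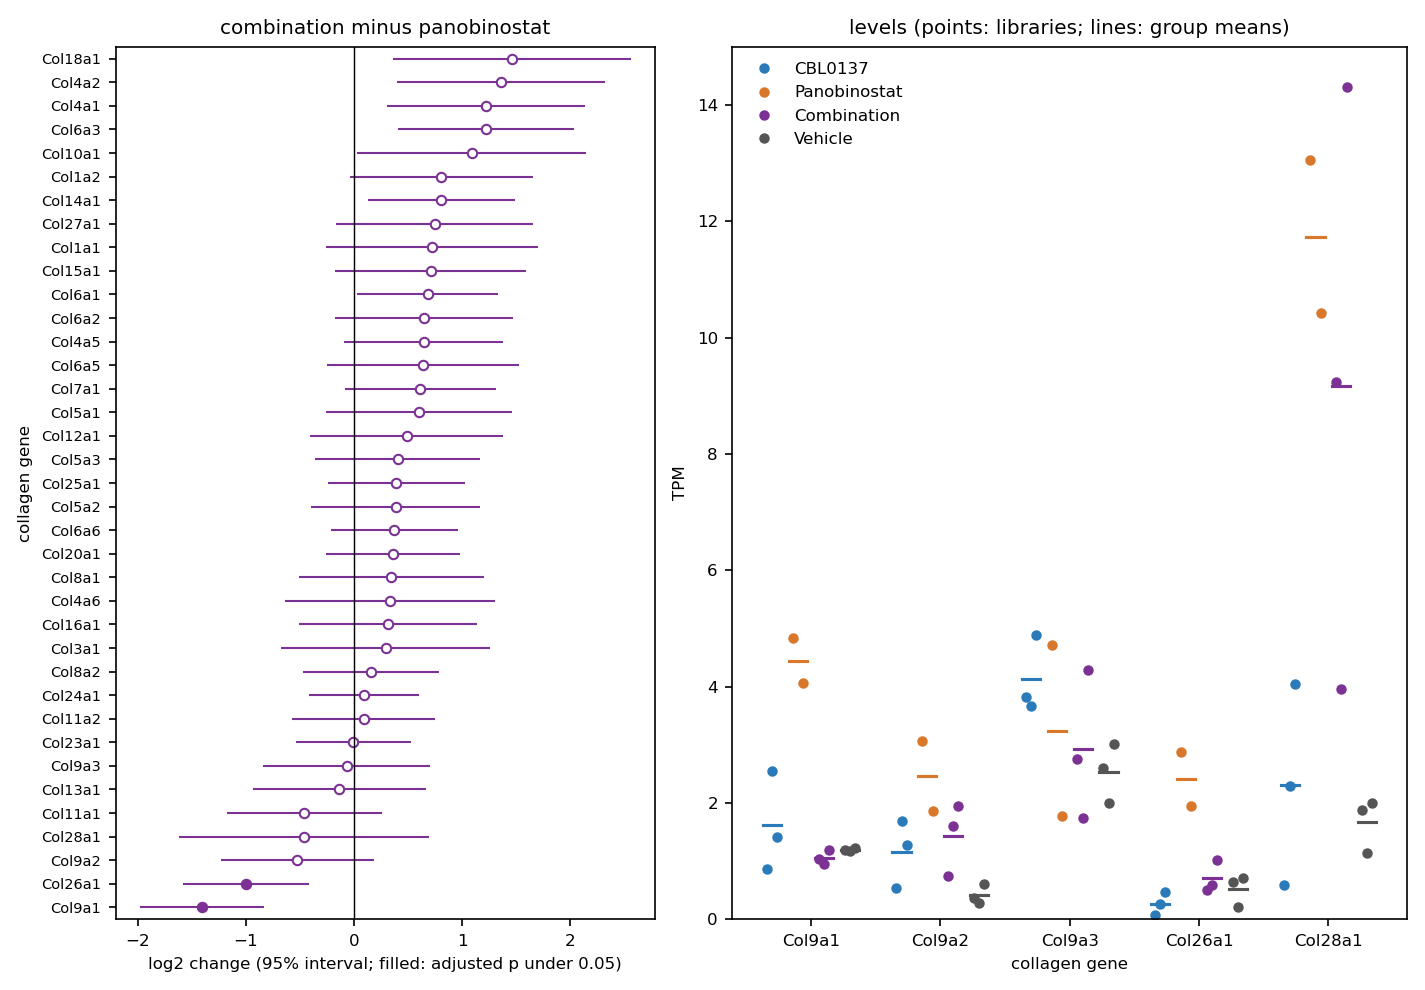
Left, log2 change with its 95% interval of the combination against panobinostat for the 37 collagen genes, sorted, with filled points at an adjusted p under 0.05. Right, TPM of the type IX, XXVI and XXVIII chains, with 1 point per library and a line at each group mean for CBL0137, panobinostat, combination and vehicle tumours. Col9a1 and Col26a1 are the filled points, below 0, and their panobinostat levels lie above all other libraries.

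The enzymes and partners of collagen were read from lists of genes, with the counts set beside the background shares given above for each comparison. Of 18 genes that fold and modify collagen in the endoplasmic reticulum, 14 were called higher after panobinostat and 15 after the combination, both against vehicle, with medians of 1.14 and 1.60. Serpinh1, the chaperone of procollagen, stood at 102, 96.0 and 168 TPM after CBL0137, 196 and 283 TPM after panobinostat, 378, 479 and 408 TPM after the combination and 47.7, 33.9 and 29.0 TPM in vehicle tumours. It rose in each treated group, by 1.68 after CBL0137, 2.67 after panobinostat and 3.50 after the combination, and was the 1 gene of this list called after CBL0137. Fkbp10, a prolyl isomerase of procollagen, rose by 2.52 after panobinostat and 2.86 after the combination. P4ha1 (0.92), Crtap (0.77) and Plod3 (0.61), which hydroxylate prolines or lysines or assist in it, were called higher in the combination than in panobinostat tumours. These calls were not stable, kept in 9, 6 and 8 of 23 alternative settings, over which 0 to 5 genes of this list were called.

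Of 13 genes that trim or cross-link procollagen, 12 were called higher after panobinostat and 12 after the combination against vehicle, with medians of 1.95 and 2.98. The cross-linking oxidases Lox and Loxl1 rose by 3.18 and 3.45 after panobinostat, and by 4.07 and 4.01 after the combination. Lox stood at 59.0 and 110.2 TPM after panobinostat, 140.2, 185 and 132 TPM after the combination and 11.1, 5.72 and 8.06 TPM in vehicle tumours. Adamts14, a procollagen N-proteinase, was the 1 gene of this list called higher in the combination than in panobinostat tumours (0.98), a call kept in 15 of 22 settings.

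Genes that break down collagen rose with those that build it. Of 14 such genes and their inhibitors 13 were called higher after panobinostat and 13 after the combination against vehicle, with medians of 2.26 and 2.70. Timp1, an inhibitor of matrix metalloproteinases, rose by 2.49 after CBL0137, 4.47 after panobinostat and 5.52 after the combination. Mmp13, an interstitial collagenase, stood at 9.78, 9.55 and 20.8 TPM after CBL0137, 13.9 and 12.4 TPM after panobinostat, 164, 209 and 112 TPM after the combination and 1.33, 1.52 and 1.44 TPM in vehicle tumours. Its combination level was thus above that of either drug alone, by 3.47 ± 0.324 against panobinostat (SE, limma adjusted p = 0.00039), a call kept in all 23 alternative settings run. Mmp8, the neutrophil collagenase, was the other gene of this list called higher in the combination than in panobinostat tumours (1.00), and that call was lost in 18 of the 23.

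Of 9 collagen receptors 8 were tested, and 6 were called higher after panobinostat and 7 after the combination against vehicle. Ddr2, a receptor kinase for fibrillar collagen, rose by 2.42 after panobinostat and 2.68 after the combination. Lair1, an inhibitory collagen receptor of leukocytes, and Itgb1, the shared beta chain of the collagen-binding integrins, were higher in the combination than in panobinostat tumours, by 0.96 and 0.60, calls lost in 16 and 17 of 23 settings. All 15 partners of fibrils were called higher after panobinostat and after the combination against vehicle, with medians of 2.89 and 3.53. Postn rose by 3.40 after panobinostat and 3.54 after the combination, and Sparc by 2.89 and 3.75. Fmod, which regulates fibril assembly, stood at 16.4, 38.4 and 18.7 TPM after the combination, against 3.22 and 7.24 TPM after panobinostat, and was the 1 partner called in that comparison (2.01 ± 0.447, SE, limma adjusted p = 0.028), a call kept in 18 of 23 settings.

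Of 15 basement membrane partners, laminins and linkers, 13 were called higher after panobinostat and 14 after the combination against vehicle. In the combination against panobinostat 0 were called. Nid1, which links laminin to type IV collagen, rose by 2.44 after panobinostat and 3.51 after the combination. Lama2 rose by 2.56 after panobinostat and 2.60 after the combination. Of 16 genes of TGF-beta signalling, a pathway known to drive collagen transcription, 12 were called higher and 1 lower after panobinostat, and 13 higher and 2 lower after the combination. Tgfb1 rose by 2.57 after panobinostat and 3.00 after the combination, and its receptor Tgfbr2 by 2.82 and 3.57. The lower genes, named after their values were seen, were the signal transducers Smad4, by -0.44 after panobinostat and -0.50 after the combination, and Smad2, by -0.41 after the combination.

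For CBL0137 against vehicle, where 4.99% of all tested genes were called higher, the lists have the sizes given above. After CBL0137, 1, 4, 3, 1, 2, 0 and 1 genes of the folding, processing, degradation, receptor, fibril partner, basement membrane partner and TGF-beta lists were called higher against vehicle. Over the alternative settings the counts called ran from 1 to 12, 0 to 8, 2 to 9, 0 to 3, 0 to 8, 0 to 3 and 0 to 6, in the same order.

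Markers of the cells that make collagen moved with the collagen genes. Of 15 fibroblast markers 12 were called higher after panobinostat, and 13 higher and 1 lower after the combination, against vehicle. Their sum was 231 to 716 TPM after CBL0137, 894 to 1383 TPM after panobinostat, 1172 to 2954 TPM after the combination and 113 to 139 TPM in vehicle tumours, with at most 1 of the 15 listed at 0 in a library. All 11 pericyte and smooth muscle markers and all 13 endothelial markers were called higher after panobinostat and after the combination. The endothelial sum was 121 to 291 TPM after CBL0137, 293 to 341 TPM after panobinostat, 551 to 1090 TPM after the combination and 53.8 to 91.0 TPM in vehicle tumours. The combination libraries ranked alike by endothelial markers (551, 1090 and 693 TPM) and by the basement membrane sum (985, 1910 and 1567 TPM), with replicate 2 highest and replicate 1 lowest. This order was not particular to endothelial markers. Macrophage markers (6511, 10246 and 7313 TPM) and sympathoadrenal markers (869, 1794 and 1437 TPM) had it too. Pericyte and smooth muscle markers did not, at 930, 1686 and 1825 TPM. Fibroblast markers had another order, at 2954, 1918 and 1172 TPM, with replicate 1 highest as for the fibrillar sum (3665, 2586 and 2808 TPM). CBL0137 replicate 3 was the highest of its group for fibroblast markers (716 TPM), endothelial markers (291 TPM) and collagens.

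Schwann cell markers followed another order. Of 12 such genes 11 were tested, and 10 were called higher after panobinostat and 7 higher and 1 lower after the combination, against vehicle. Their sum was 108 to 141 TPM after CBL0137, 264 to 287 TPM after panobinostat, 175 to 272 TPM after the combination and 89.0 to 126 TPM in vehicle tumours. The median change of the combination against panobinostat was -0.74 over these markers, with 0 called. Col28a1, at 9.23, 3.95 and 14.3 TPM in the 3 combination libraries, ranked as the Schwann cell sum did (197, 175 and 272 TPM). Of 12 cartilage and bone markers, the tissue best known for type IX collagen, 3 were tested, and their sum over the 11 in the table was 3.37 to 5.32 TPM after CBL0137, 12.3 to 14.6 TPM after panobinostat, 10.8 to 16.5 TPM after the combination and 2.21 to 11.2 TPM in vehicle tumours. Of 10 macrophage markers all were called higher after panobinostat and after the combination, and 7 after CBL0137. Of 7 fat markers 3 were called after panobinostat and 7 after the combination. Muscle and kidney markers had 0 calls against vehicle, adrenal cortex markers 2 (Mc2r and Scarb1, after the combination), and B cell markers 1 in each treated group, Cd22. Of 15 sympathoadrenal markers 2 were called higher after CBL0137, 2 lower after panobinostat, and 3 higher and 7 lower after the combination. The part of these cell markers in the collagen changes was not tested.

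**Figure D5:**
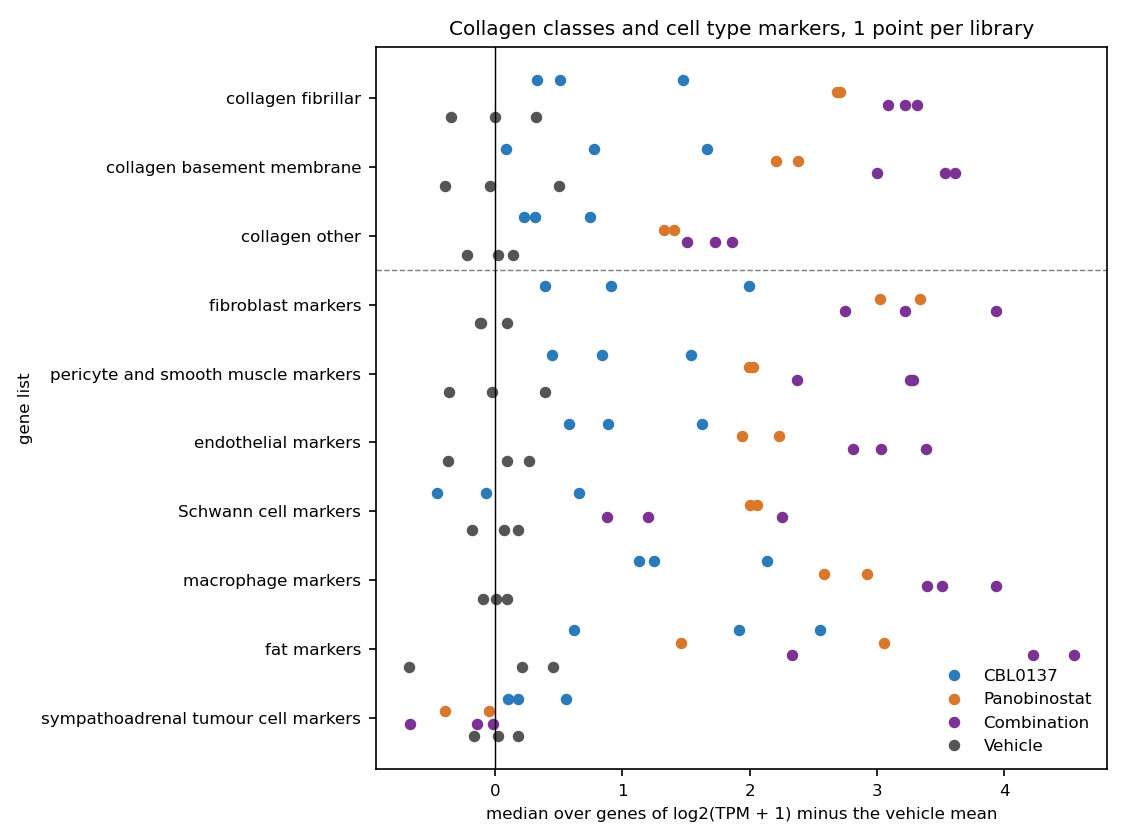
Median over the genes of a list of log2(TPM + 1) minus the vehicle mean, with 1 point per library for CBL0137, panobinostat, combination and vehicle tumours; collagen classes stand above the dashed line and markers of cell types below it. Panobinostat and combination points lie to the right of all vehicle points for each collagen class and for the fibroblast, pericyte, endothelial, Schwann cell, macrophage and fat markers, and the sympathoadrenal markers lie around 0.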

How the data were processed

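RNA from 11 tumours was sequenced as stranded, ribosomal RNA-depleted total RNA, per the labels' protocols. The authors deposited TPM values per gene, made with STAR, SAMtools and RSEM on mm10, per the submitters' processing notes, which give no versions. Read counts and the strand setting are not given in the sources used here, so the depth behind each value is unknown and no counting interval is given.

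Of 24411 genes, 15497 reached 1 TPM in at least 2 libraries and were tested; 8914 were left out. Differences of log2(TPM + 1), which understate changes of low genes, were tested with limma 3.58.1 in R 4.3.3 (4 group means, 11 libraries, trended variance), with Benjamini-Hochberg adjustment over all tested genes and a threshold of 0.05. The fit was tested on simulated data. Tables and figures used Python 3.11.15, pandas 2.3.3 and matplotlib 3.10.9.

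All 37 members are accounted for; other genes are named if they led their list or were called in the combination against panobinostat, and genes outside that rule are marked as such. The members and lists were chosen with earlier results of these data known. The alternatives tried were other pseudocounts, filters, scalings, weights, a replicate block and leaving out libraries.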

Additional observations from a re-analysis of the deposited data

How the results depend on the processing

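Most collagen calls for panobinostat or the combination against vehicle, and for the combination against CBL0137, were kept under each alternative. The counts as reported were 30, 32 and 29. Quantile normalization called 19 higher for panobinostat against vehicle, and 24 higher and 2 lower for the combination against vehicle. It called 25 higher and 2 lower for the combination against CBL0137. A filter of 5 TPM, which left low members untested, called 21, 22 and 22 in the same order. Leave-one-out counts ran from 25 to 32 for panobinostat against vehicle, 31 to 33 for the combination against vehicle and 26 to 29 for the combination against CBL0137. For CBL0137 against vehicle (2 called), 4 were called with a pseudocount of 0.1 and 0 with one of 5, 1 with no filter, 4 with a filter of 5 TPM, 5 with TMM factors, 1 with quantile normalization, 1 with no trend, 15 with array weights (14 higher and 1 lower, where 2634 of all genes were called higher and 2058 lower, against 774 and 175), 0 in a fit of these groups alone and 0 without the 4 libraries that stood apart, an alternative chosen after seeing the data; leave-one-out counts ran from 0 to 3. For the combination against panobinostat (2 called), 1 was called with a pseudocount of 0.1 and in a fit of these groups alone (Col9a1, lower), 1 with a filter of 5 TPM (Col6a3, higher, with Col9a1 and Col26a1 untested) and 1 without the 4 libraries (Col1a2, higher), and leave-one-out counts ran from 0 to 11. For panobinostat against CBL0137 (25 called), 0 were called in a fit of these groups alone, and leave-one-out counts ran from 0 to 27. The interaction had 0 calls under each alternative run. In the combination against panobinostat, Col6a3 was also called higher with a pseudocount of 5, with quantile normalization and without CBL0137 replicate 2 or 3. The log2 ratio of summed fibrillar TPM, panobinostat over vehicle, was 2.99, and 2.91 without Col3a1.

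Deviations from the group means had correlations of -0.26 to 0.19 between same-numbered libraries. With so few libraries per group the deviations within a group are bound to each other. These correlations therefore cannot decide whether the numbers pair the samples. With a replicate block and against vehicle, 0 collagen members were called for CBL0137, 27 for panobinostat and 31 for the combination. The block left 28 for the combination against CBL0137, 1 for the combination against panobinostat, 16 for panobinostat against CBL0137 and 0 for the interaction. Of all tested genes, 521, 5807, 9853, 8318, 345, 1249 and 0 were called in the same order.

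Changes of low genes turned direction under some settings, none of them called as reported except Col23a1 and Col24a1. With quantile normalization Col9a1 was at -0.12 after CBL0137; after panobinostat Col11a2 was at -0.055, Col13a1 -0.39, Col23a1 -0.015, Col24a1 -0.016, Col25a1 -0.012 and Col9a3 -0.70; and after the combination Col13a1 was at -0.47, Col26a1 -0.48 and Col9a3 -0.74, all against vehicle. For the combination against vehicle, array weights gave -0.21 for Col13a1, -0.059 for Col26a1 and -0.020 for Col9a3, TMM factors gave -0.029 for Col9a3, and leaving out the 4 libraries gave -0.21 for Col13a1. The cause was not tested.

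Leave-one-out changes ran from -0.046 to 0.41 for Col9a1 (CBL0137 against vehicle), -0.035 to 1.12 for Col4a6 (panobinostat against vehicle), -0.34 to 0.70 for Col9a3 (panobinostat against vehicle), -0.068 to 0.52 for Col13a1 (combination against vehicle) and -0.13 to 0.35 for Col9a3 (combination against vehicle).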
